A study of Mus musculus with 6 samples.

Results

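Transcripts of 6 B cell genes (Cd79a, Cd79b, Ms4a1, Cd22, Ebf1 and Pax5) and of 3 MHC class II genes (H2-Aa, H2-Ab1 and Cd74) were followed library by library in RNA from sorted naive CD4 T cells, as a readout of other cells in the sort. The 9 genes were chosen by name, out of 16911 gene symbols in the table, and where a symbol had several transcript rows the row with the highest total over the 6 libraries was used. The cells came from C57BL/6 mice: 3 libraries (WT1 to WT3) were made from wild-type animals and 3 (KO1 to KO3) from TRIM28 knockout littermates. Which promoter or Cre drives the deletion, the age of the mice, and whether each library stands for a separate mouse were not given in the sources used here. All cells passed a magnetic enrichment followed by a flow cytometry sort before lysis, and stimulated cells, which the series title also names, were not analysed here. The value used throughout is the normalized read count, the number of reads of a row divided by a size factor for the library.

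CD79A and CD79B are the paired signalling chains of the B cell antigen receptor, MS4A1 is the surface protein CD20, and CD22 is a sialic acid binding receptor that dampens signalling through the antigen receptor. EBF1 and PAX5 are the transcription factors that establish and hold B cell identity. H2-AA and H2-AB1 are the alpha and beta chains of the mouse MHC class II molecule I-A, which presents peptides to CD4 T cells, and CD74 is the invariant chain that escorts class II molecules through the cell. B cells, dendritic cells and macrophages carry class II molecules at the surface, whereas resting mouse T cells make little or none of them.

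Class II genes share a promoter layout in which a Y box, an inverted CCAAT element, lies just before the start of transcription and is bound by the factor NF-Y. The 200 bases before the start of H2-Aa and of H2-Eb1 are shown because those genes moved together over the 6 libraries, as described below, and the promoter of Cd79a is shown because, of the tested B cell genes, that gene differed least between KO3 and the other libraries. Sequences are from RefSeq on GRCm38.p6, which is mm10, and run 5′ to 3′ on the gene's own strand. Of the 9 genes, 5 had an entry in the promoter table.
H2-Aa, chr17:34287824-34288023, minus strand: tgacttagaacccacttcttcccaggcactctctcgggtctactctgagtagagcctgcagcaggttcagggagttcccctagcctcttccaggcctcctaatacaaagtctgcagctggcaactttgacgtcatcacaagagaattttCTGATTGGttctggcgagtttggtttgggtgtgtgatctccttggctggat
H2-Eb1, chr17:34305667-34305866, plus strand: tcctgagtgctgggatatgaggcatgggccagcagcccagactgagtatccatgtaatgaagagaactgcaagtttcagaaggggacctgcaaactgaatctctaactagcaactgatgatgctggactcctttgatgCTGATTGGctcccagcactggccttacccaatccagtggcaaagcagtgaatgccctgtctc
Cd79a, chr7:24897297-24897496, plus strand: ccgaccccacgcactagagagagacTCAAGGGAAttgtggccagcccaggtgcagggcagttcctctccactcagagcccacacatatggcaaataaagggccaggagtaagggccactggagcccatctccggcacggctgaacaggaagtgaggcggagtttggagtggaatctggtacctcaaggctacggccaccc
Capitals mark the Y box letters CTGATTGG in H2-Aa and H2-Eb1, which begin 51 and 62 bases before the start. On either strand, those letters occurred in 3.83% of 32851 promoter windows of 250 bases. In Cd79a, capitals mark TCAAGGGAA, the core of a site for early B cell factor 175 bases before the start. These letters were taken from that promoter, so finding them there is no result, and they occurred in 0.24% of the windows. The octamer ATTTGCAT, searched on both strands, occurred in 1.6% of the windows and in none of the 5 windows of the genes followed here. None of these searches overlaps another in letters, and each match is a match of letters only.

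Depth ran from 22005759 to 44372701 reads over the 19048 rows. Trim28 itself read 8429, 8287 and 9428 across WT1 to WT3, and 738, 628 and 1247 across KO1 to KO3. KO3 stood apart on the high side. It was at least 2-fold above the highest of the other 5 libraries in 419 of the 13022 rows tested, a share of 3.22%, while WT1, WT2, WT3, KO1 and KO2 were so in 6, 13, 4, 9 and 15 rows. On the low side it did not stand apart: 32 rows in KO3, and between 45 and 196 in each other library, were at least 2-fold below the lowest of the others. Y-linked Ddx3y read 5801 in WT1 and 5422 in KO2 and was at 0 reads in the other 4 libraries, KO3 included, and Xist, which female cells express, read 12289 and 16359 in WT1 and KO2 and between 19461 and 28062 in the rest. WT1 and KO2 thus held both kinds of transcript, and neither can be taken as the cells of a single mouse. The 16 listed CD4 T cell identity genes summed to between 252818 and 268387 in wild type, and to 251208, 238404 and 212573 in KO1, KO2 and KO3, which is 0.725% to 0.822% of the normalized counts of a library. Cd4 ran from 27990 in KO3 to 34970 in WT3.

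Every B cell and class II gene with more than 3 reads in some library was highest in KO3. Of the 6 genes with a mean of at least 10, 5 were at least 2-fold above the highest other library there, against 3.22% of all tested rows. The singled-out library was known when the genes were chosen, so this is a description with no test. The mean of at least 10 was taken over all 6 libraries, KO3 included. In the lists below, some rows therefore passed that filter only because they were high in KO3. The 3 class II genes together summed to 3846 in KO3, and to between 129 and 617 in the other libraries, and the 6 B cell genes to 1247 in KO3 and between 163 and 293 elsewhere. In KO3 these sums were 0.0131% and 0.00425% of the normalized counts. In RNA from a bulk sort, a larger number of cells of a type and more RNA per cell cannot be told apart.

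**Figure D1:**
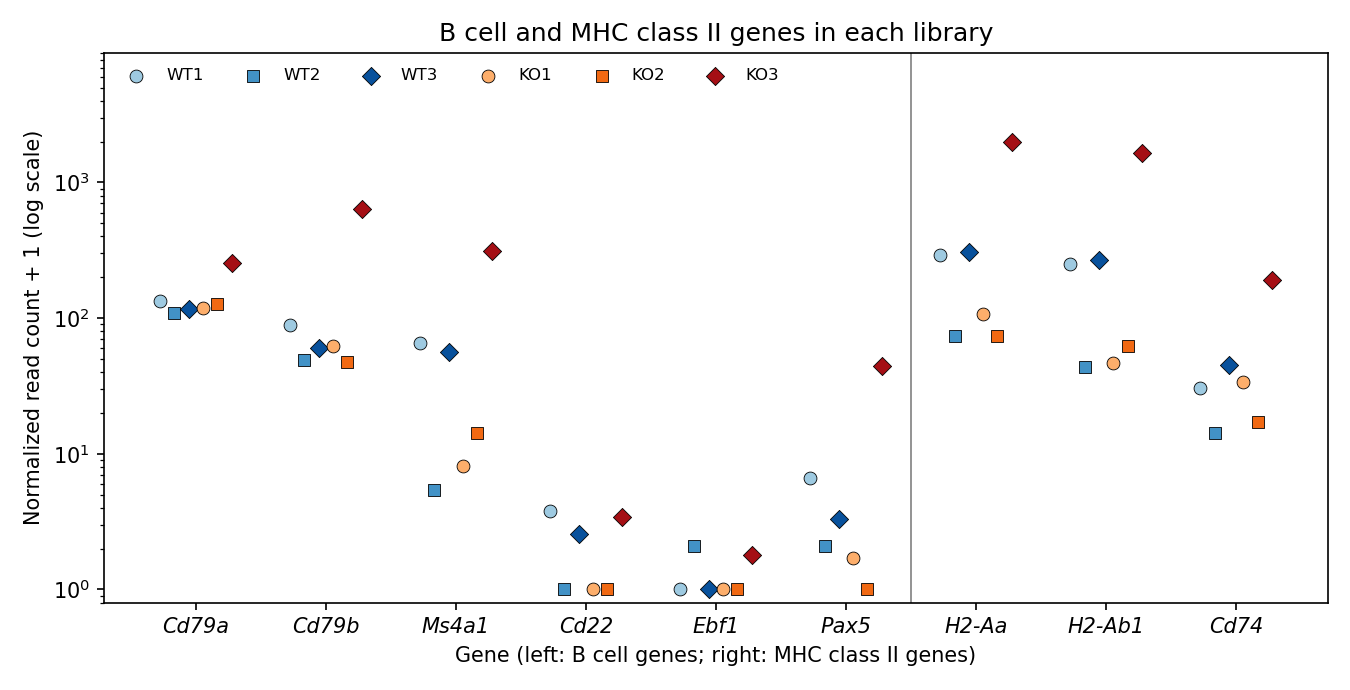
Normalized read count plus 1 (log axis) of the 6 B cell genes, left of the line, and the 3 MHC class II genes, right of it, 1 marker per library. KO3 is the highest marker for Cd79a, Cd79b, Ms4a1, Pax5 and the class II genes, and Cd22 and Ebf1 lie at 3 reads or fewer in every library.

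Among the receptor chains, Cd79a (NM_007655, chromosome 7 from 24897497 to 24901858) read 132, 108 and 116 across WT1 to WT3, and 118, 125 and 253 across KO1 to KO3. The 5 libraries other than KO3 lay within 1.23-fold of each other, and KO3 was 1.91 times the highest of them. Cd79b (NM_008339, chromosome 11 from 106311341 to 106314562) read 87.8, 48.4 and 59.5 in wild type, and 61.4, 46.6 and 634 in the knockout. KO3 was 7.22 times the next highest library, WT1, so the excess there was larger for Cd79b than for its partner chain. In reads, Cd79b over Cd79a was 2.51 in KO3 and between 0.372 and 0.663 in the other libraries.

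Ms4a1 (NM_007641, chromosome 19 from 11249679 to 11266149), the gene of CD20, read 64.1, 4.40 and 54.8 across WT1 to WT3, and 7.14, 13.1 and 314 across KO1 to KO3. The wild-type libraries themselves spanned 14.6-fold, with WT1 and WT3 high and WT2 at 4 reads, whose 95% Poisson interval runs from 1.20 to 11.3 on the normalized scale. The intervals of WT1 (47.0 to 85.6) and WT3 (42.8 to 69.2) overlap each other and not that of WT2. KO3 was 4.90 times WT1. Such intervals cover counting error only, and reads copied by PCR are not independent molecules.

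The lineage factor Pax5 (NM_008782, chromosome 4 from 44524748 to 44710694) was read 54 times in KO3, a normalized 43.0 with a 95% Poisson interval of 32.3 to 56.2. It was read 4, 1 and 3 times in WT1, WT2 and WT3, and 1 and 0 times in KO1 and KO2. The 95% Poisson interval of the 0 reads in KO2 reaches up to a normalized 5.38. KO3 was 7.72 times WT1, but with a mean of 8.79 the gene was below the level at which rows were tested. Cd22 (chromosome 7 from 30865404 to 30880342) and Ebf1 (chromosome 11 from 44618100 to 45008096) could not be followed. The row used for Cd22, NR_102723, held 2, 0 and 2 reads in wild type and 0, 0 and 3 in the knockout, and the row used for Ebf1, NM_001290711, held 1 read in each of WT2 and KO3 and 0 elsewhere. RefSeq gives 4 transcripts of Cd22 and 12 of Ebf1, of which 3 and 2 have rows in the table, and how a read lying in several transcripts was assigned was not given in the sources used here. Whether that bears on the low counts of these 2 genes was not tested, and no level in the cells is read from them.

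The I-A chains reached the highest levels, in KO3. H2-Aa (NM_010378, chromosome 17 from 34282744 to 34287823), the alpha chain, read 293, 72.6 and 307 across WT1 to WT3, and 106, 72.9 and 2001 across KO1 to KO3. H2-Ab1 (NM_207105, chromosome 17 from 34263227 to 34269418), the beta chain, read 249.6, 42.9 and 265.7 in wild type, and 45.7, 61.2 and 1654 in the knockout. For both chains KO3 was first and WT3 and WT1 followed close together, while WT2, KO1 and KO2 formed the low end. KO3 was 6.51 times WT3 for H2-Aa and 6.22 times WT3 for H2-Ab1. In reads, H2-Aa over H2-Ab1 was 1.17, 1.69 and 1.16 across WT1 to WT3, and 2.33, 1.19 and 1.21 across KO1 to KO3, so the 3 libraries with the most reads of both chains had nearly the same ratio.

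The invariant chain gene Cd74 (NM_001042605, chromosome 18 from 60803849 to 60812652) read 29.3, 13.2 and 44.0 across WT1 to WT3, and 32.8, 16.0 and 190 across KO1 to KO3. KO3 was 4.33 times WT3, the next highest, and KO1 lay between WT1 and WT3. The table used holds 1 of the 2 RefSeq transcripts of Cd74, so its level may be understated and the comparison of its level with the I-A chains is limited by that. H2-Aa over Cd74, in reads, was 10, 5.5 and 6.98 across WT1 to WT3, and 3.24, 4.55 and 10.5 across KO1 to KO3.

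Levels of different genes were set side by side per kilobase of transcript. In KO3, normalized reads per kilobase were 1774 for H2-Aa, 1365 for H2-Ab1, 531 for Cd79b, 173 for Cd79a, 135 for Cd74, 102 for Ms4a1 and 5.38 for Pax5. In WT2 the order was different, with Cd79a first at 74.0, then H2-Aa at 64.4, Cd79b at 40.5, H2-Ab1 at 35.4, Cd74 at 9.37 and Ms4a1 at 1.43. In KO2 Cd79a was again first, at 86.0 against 64.6 for H2-Aa, and in KO1 it was second, at 80.9 against 94.3. Cd79a was at a similar level in every library but KO3, where both I-A chains stood furthest above it. In WT1 and WT3, H2-Aa was first per kilobase, at 259.6 and 273, with Cd79a at 90.9 and 79.5.

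The order of libraries was shared by part of the genes. For Ms4a1, H2-Aa and H2-Ab1, that is for 3 of the 6 tested genes, KO3, WT1 and WT3 were the 3 highest libraries, an order found in 11.2% of all tested rows. Pax5, which was not tested, had it too. After KO3, Cd79a was highest in WT1 and then KO2, Cd79b in WT1 and then KO1, and Cd74 in WT3 and then KO1. Pairwise Pearson correlations of log2 values over the 6 libraries ran from 0.826 (Cd79a with Ms4a1) to 0.988 (Ms4a1 with H2-Ab1), and were 0.984 for H2-Aa with H2-Ab1 and 0.981 for Cd79a with Cd79b. All these pairs share the same 6 libraries and their size factors, and KO3 is the extreme point of each.

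Knockout was then compared with wild type, on a log2 scale after adding 1 to each normalized read count. Limma called 0 of the 6 tested genes at an adjusted p under 0.05, while it called 196 of 13022 rows (1.51%), of which 155 rose and 41 fell. At an unadjusted p under 0.05 limma had 0 of the 6 and 1651 of all rows, and voom weights on the recovered reads also gave 0 of the 6. The largest estimate was that of Cd79b, 65.2 ± 20.3 in wild type and 247 ± 335 in knockout (SD, n = 3 per group), with a log2 difference of 0.94 between genotypes (SE 0.85, limma adjusted p 0.694). H2-Aa was 224 ± 132 in wild type and 727 ± 1104 in knockout, with 0.42 on the log2 scale (SE 1.14, limma adjusted p 0.910). The standard deviation of the knockout exceeded its mean for Cd79b, Ms4a1, H2-Aa, H2-Ab1 and Cd74.

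The other 4 estimates did not pass either, and their errors differed. Cd74 had 0.84 on the log2 scale (SE 0.82, limma adjusted p 0.721), from 28.8 ± 15.4 to 79.8 ± 96.2. Cd79a had 0.39 (SE 0.29, limma adjusted p 0.621), from 118.7 ± 12.6 to 165 ± 75.8. Those of Ms4a1 and H2-Ab1 were 0.29 (SE 1.40) and 0.24 (SE 1.28), with limma adjusted p-values of 0.950 and 0.958. Exact two-sided permutation tests over the libraries gave p between 0.4 (Cd79a) and 0.9 (Ms4a1), where 3 against 3 cannot go below 0.1. A p above the threshold does not show that the genotypes are alike, since these errors leave room for changes of more than 2-fold in either direction for Ms4a1, H2-Aa and H2-Ab1.

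Leaving out KO3 changed the sign of 5 of the 6 estimates. The log2 fold changes became -0.24 for Cd79b (SE 0.31, limma adjusted p 0.705), -1.33 for Ms4a1 (SE 0.92, limma adjusted p 0.440) and -0.16 for Cd74 (SE 0.53, limma adjusted p 0.897). For the I-A chains they became -1.08 for H2-Aa (SE 0.52, limma adjusted p 0.263) and -1.41 for H2-Ab1 (SE 0.63, limma adjusted p 0.237), while Cd79a stayed near 0 at 0.04 (SE 0.20, limma adjusted p 0.937). KO1 and KO2 lay within the wild-type range for each of these genes except Cd79b, in which KO2, at 46.6, was just under WT2. Limma again called 0 of the 6 without KO3, against 562 of 13022 rows (4.32%), and 1 of the 6, H2-Ab1, had an unadjusted p under 0.05. Without WT2, the lowest wild-type library for these genes, the estimates of Ms4a1, H2-Aa and H2-Ab1 were also negative, at -0.87, -0.26 and -0.62.

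**Figure D2:**
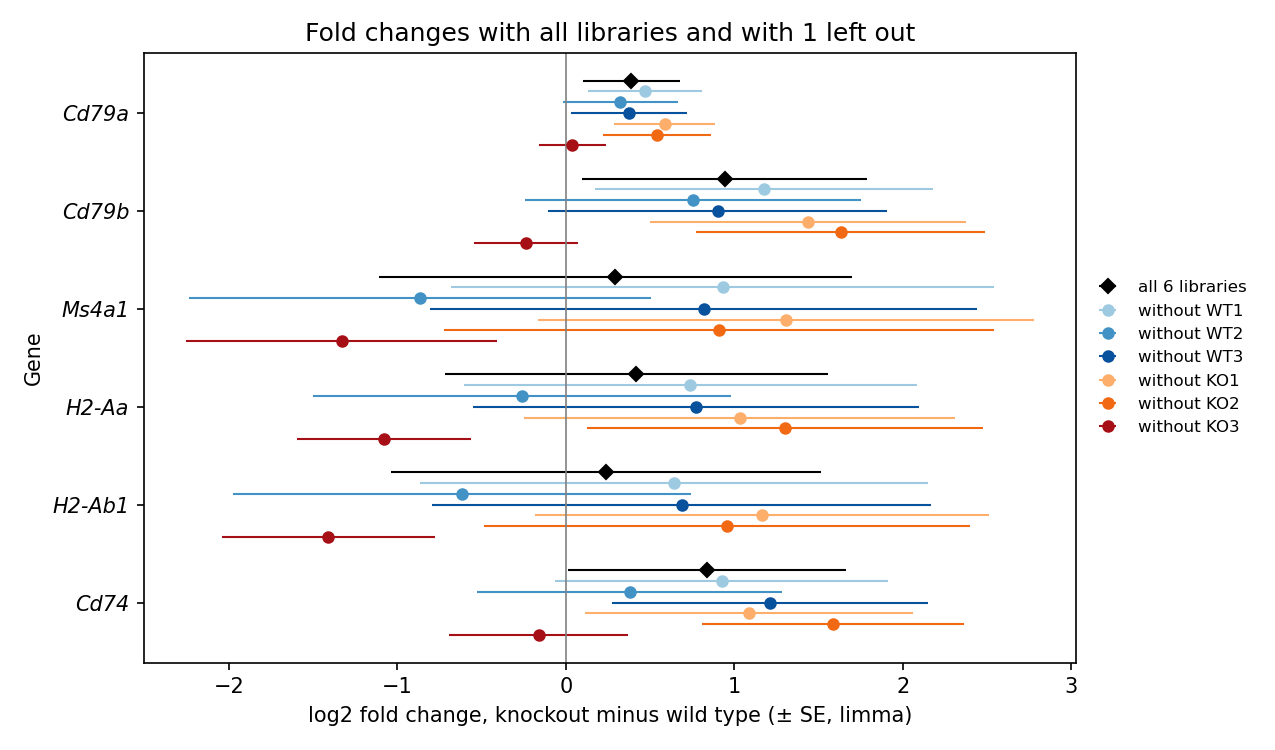
Log2 fold change, knockout minus wild type, with its standard error from limma, for the 6 tested genes with all libraries (black diamonds) and with each library left out in turn (circles). Without KO3 the estimates of Cd79b, Ms4a1, H2-Aa, H2-Ab1 and Cd74 lie below 0, and that of Cd79a is 0.04.

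Other B cell surface and receptor signalling genes followed KO3 as well. Of 30 listed genes 28 were in the table and 18 were tested: 0 rose and 0 fell by limma, 2 had an unadjusted p under 0.05, and the median log2 fold change was 0.31 with KO3 and -0.66 without it, against 0.0019 over all rows. KO3 was the highest library in 17 of the 18, Btla being the exception, against 19.3% of all tested rows. It was at least 2-fold above the others in 12, against 3.22% of all tested rows. The filter raises such counts. Cd180 and Siglecg, at 71.7 and 92.5 in KO3 and at most 9.76 and 18.1 elsewhere, passed it only through KO3. The 6 most abundant genes of the list were mixed: Dapp1, a signalling adaptor, read between 1954 and 2265 in all libraries, and the tetraspanin gene Cd81 between 601 in WT2 and 1875 in KO3, whereas Bank1, a B cell scaffold protein, read 283 in KO3 and between 21.9 and 83.7 elsewhere. Cr2, encoding complement receptor 2, was 202, 182 and 245 in KO1, KO2 and KO3 against 102 to 154 in wild type, which did not pass (log2 fold change 0.71, SE 0.20, limma adjusted p 0.170). The remaining 2, Btla and Tnfrsf13b, read between 171 and 254 and between 119 and 233.

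A pair of genes named after their values were seen followed Ms4a1. Blk, a B cell Src family kinase, read 30.7, 8.80 and 33.2 across WT1 to WT3, and 15.7, 1.46 and 281 across KO1 to KO3. Plcg2, a phospholipase downstream of the B cell receptor, read 64.1, 16.5 and 58.7 across WT1 to WT3, and 37.1, 17.5 and 359 across KO1 to KO3. In both, WT1 and WT3 were the next highest libraries after KO3. Fcrla, Fcrl1, Cd40 and Lilra5 of that list were at 3 reads or fewer in every library.

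B cell transcription factors followed KO3 in part, and several were abundant in every library. Of 16 listed, 13 were in the table and 11 tested, with 0 rising and 0 falling by limma, 2 at an unadjusted p under 0.05, and a median log2 fold change of 0.37 (0.12 without KO3). Bach2, Ikzf3, Irf4 and Rel, which T cells also make, were the most abundant, with Bach2 lowest in KO3 at 4690 and highest in KO1 at 11542. KO3 was the highest library in 7 of the 11, Bach2, Ikzf3 and Rel being among the exceptions, against 19.3% of all tested rows. It was at least 2-fold above the rest in 4, against 3.22% of all tested rows. Irf8, 1 of the 4, read 783 in KO3 and between 239.9 and 305 elsewhere. Spib read 168 in KO3 and at most 60.2 elsewhere, Spi1 97.2 and at most 13.9, and Bcl11a 59.8 and at most 6.18. Spi1 and Bcl11a passed the filter only through KO3, and Spib and Spi1 were named after their values were seen. Pou2af1, a B cell coactivator of octamer binding factors, was 776, 720 and 827 in the knockout libraries and 490 to 577 in wild type, which missed the threshold (log2 fold change 0.56, SE 0.11, limma adjusted p 0.0558; without KO3 0.51, limma adjusted p 0.0511). It passed among rows with a mean of at least 50. Rel, an NF-kappa B subunit, rose without KO3 (log2 fold change 0.71, limma adjusted p 0.0297) and had 0.57 with it (limma adjusted p 0.178).

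In the rest of the class II pathway, part of the genes stood out in KO3. Of 18 listed symbols, in which March1 is an older name of Marchf1, 16 were in the table and 14 tested. Limma called 0 of them and 3 had an unadjusted p under 0.05, against 196 and 1651 of all 13022 tested rows. The median log2 fold change was 0.25 (-0.01 without KO3). KO3 was highest in 8 of the 14, against 19.3% of all tested rows. It was at least 2-fold above the rest in 4, against 3.22% of all tested rows. These were H2-Eb1, H2-Eb2, H2-DMb1 and H2-DMb2, named after their values were seen. H2-Eb2, at 86.9 in KO3 and at most 5.58 elsewhere, passed the filter only through KO3. H2-DMb1 and H2-DMb2 encode beta chains of the peptide loading molecule H2-M, and read 140.3 and 157 in KO3 against 11.0 to 26.4 and 13.2 to 33.5 elsewhere. H2-Eb1 encodes the beta chain of I-E, a class II molecule that C57BL/6 mice do not assemble because their H2-Ea gene is defective. H2-Eb1, whose promoter is printed above beside that of H2-Aa, read 218, 30.8 and 229 across WT1 to WT3, and 71.4, 43.7 and 1277 across KO1 to KO3. That is the library order of H2-Aa, and H2-Aa over H2-Eb1, in reads, lay between 1.34 and 2.36 in all 6 libraries.

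The 6 most abundant genes of the pathway were H2-Ob, Rfx5, H2-DMa, Rfxap, Lgmn and Ifi30. H2-Ob, the beta chain of the peptide loading modulator H2-O, read 2225, 2447 and 2164 in wild type and 1764, 1858 and 2032 in the knockout (log2 fold change -0.27, SE 0.10, limma adjusted p 0.270), which did not pass. Rfx5, a subunit of the factor that binds class II promoters, lay between 1202 and 1413 in all libraries. Ciita, the class II transactivator, had a level of 5.58 in KO3 and at most 1.46 in the other libraries, too low to be tested. Of these 6, KO3 was at least 2-fold above the other libraries in 0, H2-DMa being highest there at 1403 against 877 to 1138 elsewhere.

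**Figure D3:**
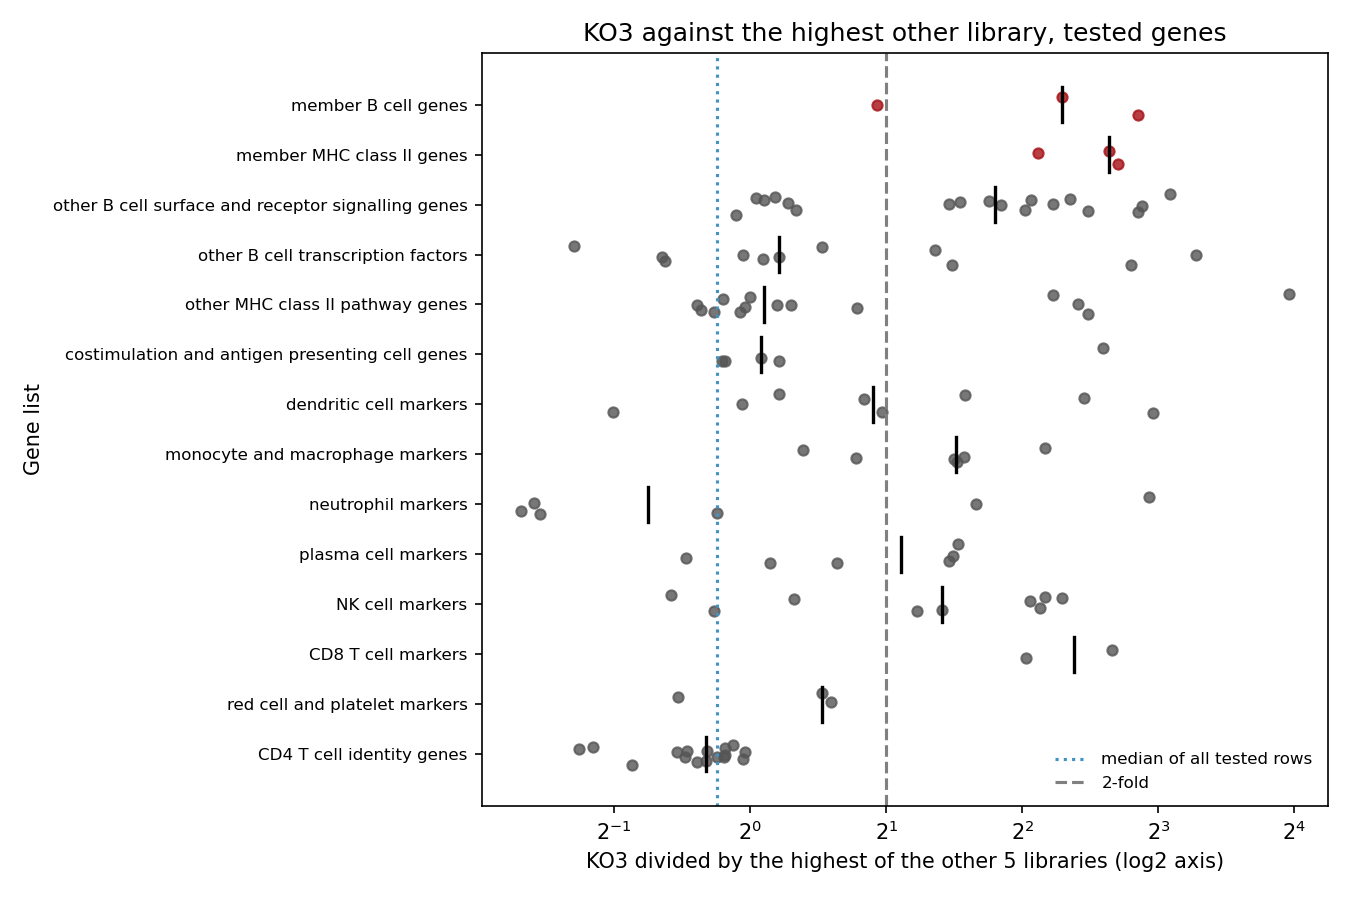
KO3 divided by the highest of the other 5 libraries (log2 axis) for each tested gene, 1 point per gene, by gene list; bars are list medians, the dotted line the median of all tested rows (0.844) and the dashed line 2-fold. The B cell and class II genes, in red, lie beyond 2-fold except Cd79a at 1.91, and the CD4 T cell identity genes lie below 1.

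Markers of several other cell types were also highest in KO3, and their part in the values above was not tested. Dendritic cell markers, 11 of 12 in the table, had 6 of the 8 tested highest in KO3, against 19.3% of all tested rows. Of the 8, Siglech, at 54.2 in KO3 and at most 6.97 elsewhere, passed the filter only through KO3. The dendritic cell markers summed to 1853 to 2099 in wild type and to 1587, 1360 and 2599 in KO1, KO2 and KO3. Bst2, the most abundant of them and most of that sum, read 1724 in KO3 and 1798 in WT3. Zbtb46, a factor of classical dendritic cells, was at 58.2 in KO3, level with 58.3 in KO2, and at 65.5 or more elsewhere. In contrast, Itgax, the CD11c gene, read 292 in KO3 and 8.74 to 53.3 elsewhere, and Flt3 read 233 in KO3 and 37.9 to 78.0 elsewhere. Monocyte and macrophage markers, 14 of 14, summed to 469 to 735 in wild type and to 403, 337 and 2257 in the knockout, and Cd14 and Fcgr1 were at 3 reads or fewer throughout. Their most abundant gene, Ly6c2, read 1232 in KO3, 330 to 429 in wild type, and 204 and 199.6 in KO1 and KO2. Both lists hold genes of cells that carry class II molecules.

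All tested neutrophil markers and 3 of the 6 tested plasma cell markers shared a trait with the I-A chains. KO3, WT1 and WT3 were their 3 highest libraries, an order found in 11.2% of all tested rows. The 3 plasma cell markers were Jchain, Mzb1 and Sdc1. Of these, Sdc1, at 64.6 in KO3 and at most 22.4 elsewhere, passed the filter only through KO3. The others lacked it: Prdm1 read 260 in KO3 and 360 in KO1, and Xbp1 and Derl3 read 71.7 and 85.3 in KO3 and up to 64.9 and 54.8 elsewhere. Neutrophil markers, 9 of 10, summed to 816, 15.4 and 322 across WT1 to WT3, and 50.7, 16.0 and 2228 across KO1 to KO3, and 6 of 6 tested had that order. Mpo, a granule enzyme of young myeloid cells, read 1737 in KO3, 227 in WT1, 131 in WT3 and 7.29 to 40.0 in the other libraries. Mpo made up most of the KO3 sum, and only Mpo and Elane, 2 of the 6, were highest in KO3, against 19.3% of all tested rows. S100a8, S100a9, Ltf and Camp, which mark more mature cells, were highest in WT1, S100a8 with 311 in WT1, 96.4 in KO3, 88.1 in WT3 and 0 in the rest. Plasma cell markers, 7 of 8 symbols, of which Igj is an older name of Jchain, summed to 614 to 1928 in wild type and to 781, 600.4 and 4892 in the knockout, most of it Jchain, the joining chain of secreted antibody, at 4180 in KO3, 1485 in WT1 and 1108 in WT3.

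CD8 T cell markers and part of the NK cell markers were also highest in KO3. CD8 T cell markers, 2 of 2, summed to 561 to 1065 in wild type and to 755, 708 and 4416 in KO1, KO2 and KO3, with Cd8b1 at 4206 and Cd8a at 209.6 in KO3. NK cell markers, 10 of 10, summed to 2913 to 3459 in wild type and to 3472, 2818 and 5086 in the knockout. KO3 was highest in 7 of the 9 tested NK genes, against 19.3% of all tested rows. Ncr1, which marks NK cells, read 341 in KO3 and 51.7 to 77.8 elsewhere. Nkg7 and Gzma read 783 and 546 in KO3 and at most 160 and 233 elsewhere. Prf1, the perforin gene and the most abundant of the list, was at 1671 in KO3, level with 1675 in WT3, and reached 2499 in KO1. Eomes, named after its values were seen, was highest in WT2. KO3, WT1 and WT3 were the 3 highest libraries in 0 of the 9 NK genes and in 2 of the 2 CD8 genes. That order was found in 11.2% of all tested rows, so with so few genes no difference is read from these counts. Red cell and platelet markers, 9 of 12, stayed low, summing to 156 to 197 in wild type and to 134, 96.2 and 334 in the knockout. In none of these lists did a gene pass limma with all 6 libraries; without KO3, Ly6c2, Klrd1 and Bst2 fell (limma adjusted p 0.0115, 0.0209 and 0.0401).

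**Figure D4:**
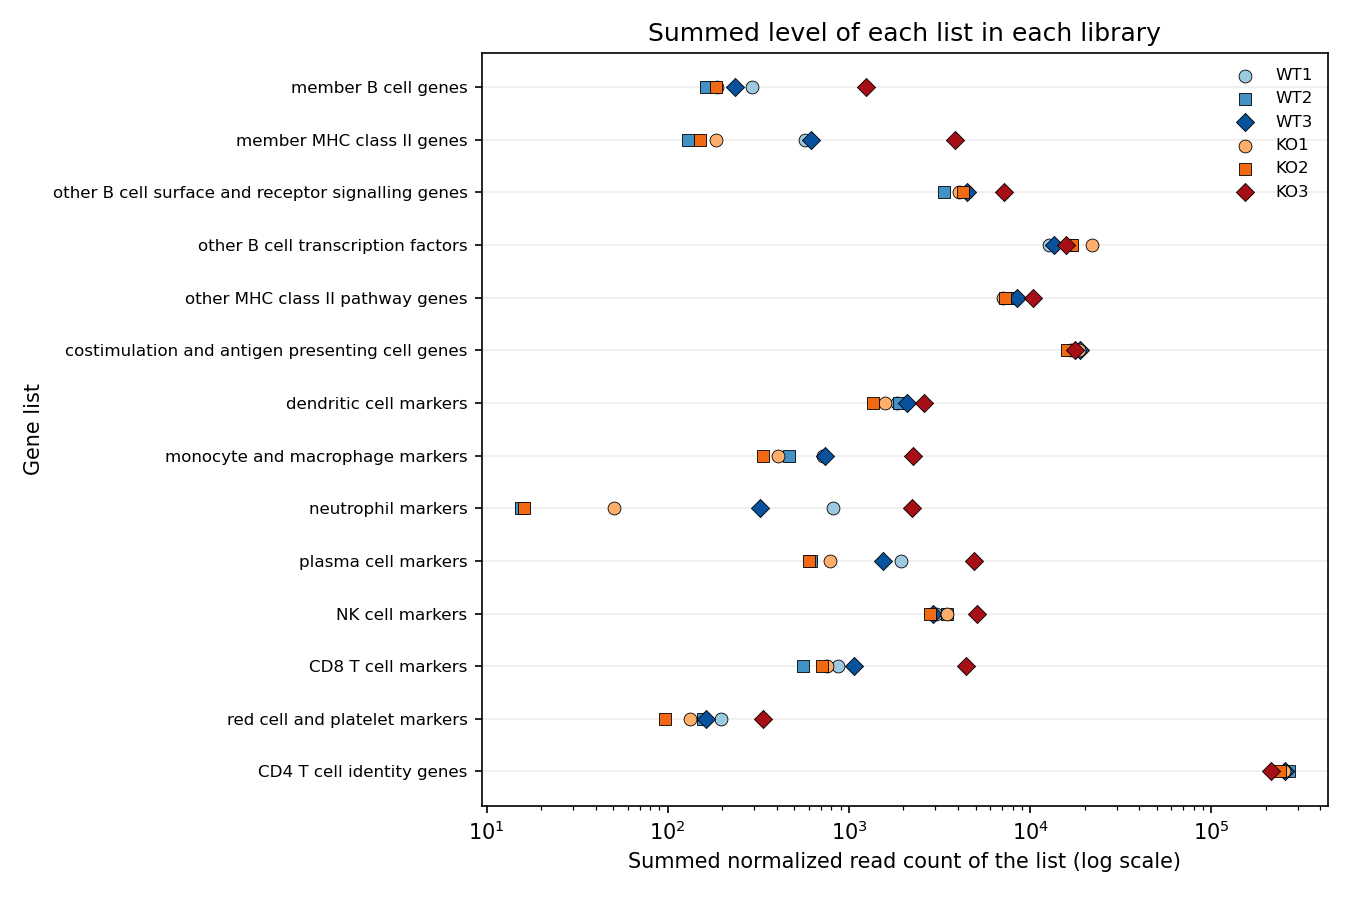
Summed normalized read count of each gene list (log axis), 1 marker per library. The class II sum is 3846 in KO3 and 129 to 617 in the other libraries, the neutrophil sum runs from 15.4 to 2228, and the CD4 T cell identity sum runs from 212573 to 268387.

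The rows whose pattern over the 6 libraries was most like these genes were found by Pearson's r against the mean of the standardized log2 values of each group, among 963 rows with a mean of at least 10 and a range of at least 2 on the log2 scale. For the class II genes the 8 most alike were Lilrb4a (r = 0.998), Ccr2, Prss34, Tgm2, Cacna1e, Rab30, Bcl11a and H2-Eb1 (r = 0.991). Ccr2, a chemokine receptor of monocytes, read 138, 39.6 and 151 across WT1 to WT3, and 64.3, 37.9 and 883 across KO1 to KO3. Prss34, a mast cell and basophil protease, read 921 in KO3 against 18.1, 0 and 21.6 in wild type and 2.14 and 0 in KO1 and KO2. The filter on the mean took in KO3, and Lilrb4a, Prss34, Cacna1e, Rab30 and Bcl11a passed it only through KO3. The range was taken with KO3 as well, so the rows compared were in part chosen by KO3. In all, 187 of the 963 rows had r of at least 0.9, and with 6 points led by KO3 such values are descriptions only.

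For the B cell genes the 12 most alike were H2bc11 (r = 0.998), Nqo1, H4c6, Anln, Gata2, Ctsg, Espl1, Siglech, Gna15, Knl1, Plac8 and Btk (r = 0.983), and 149 rows had r of at least 0.9. Btk, the kinase downstream of the B cell receptor, read 105 in KO3 and 10.7 to 29.3 elsewhere. H2bc11 and H4c6 encode histones, and Anln, Espl1 and Knl1 act in cell division. H4c6 read 724, 468 and 616 across WT1 to WT3, and 366, 423 and 1697 across KO1 to KO3. The barely read Cd22 and Ebf1 enter that profile. With only the 4 B cell genes that had at least 10 reads in some library, an alternative chosen after the data were seen, Cd180 (r = 0.990), Bcl11a, Fcer1a, Serpina3g, S100a4, Plscr1, Ctsg, Rab30, Nqo1, H4c6, Cd93 and Lrp1 (r = 0.977) were the most alike. The 2 B cell rankings shared 3 genes, the first of them shared 0 with the 8 genes of the class II ranking, and the second shared 2, Rab30 and Bcl11a. Cd180, a B cell surface receptor, read 71.7 in KO3 and 1.10 to 9.76 in the other libraries. Gata2, Ctsg and Siglech in the first ranking, and Cd180, Bcl11a, Fcer1a, Ctsg and Rab30 in the second, passed the mean filter only through KO3.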

How the data were processed

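RNA was sequenced from 3 wild-type and 3 TRIM28 knockout libraries of sorted naive CD4 T cells, as 100 bp pairs per the labels' protocols. STAR, HTSeq, DESeq2 and mm10 are named, with no versions, per the submitters' processing notes. The authors deposited 1 table of 19048 RefSeq transcript rows in log10 units, a scale read from the values themselves: after taking 10 to the power of the value and subtracting 1, 100% of each library fell on whole multiples of 1 step (tolerance 0.01), so each deposited log10 value is that of 1 plus a read count over a size factor. RefSeq (GRCm38.p6) named 18811 rows and GENCODE metadata 104. The 133 rows with no symbol, holding 2.70% of the normalized counts, were tested as rows.

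Limma 3.58.1 in R 4.3.3 took log2 values of the normalized read count with a pseudocount of 1, with empirical Bayes trend and no covariate, on the 13022 rows with a mean of at least 10, two-sided, with Benjamini-Hochberg adjustment over all of them. Fold changes on this scale understate those of low genes. Limma was tested on simulated counts in which no library stood apart, so that test does not cover a case such as KO3. Negative binomial tools were planned where the unit was a count; with log10 values they were not used, and voom took their place. Libraries of the same group differed by more than sampling noise in every pair. Separate mice per library are not stated, and WT1 and KO2, with Y-linked transcripts beside Xist, cannot be taken as single mice. The p-values therefore reflect only how these libraries vary, which may be technical. Genes and lists were chosen with earlier results of these data known. Named genes were the 9, the 6 most abundant of each other list, each called gene, and the 12 and 8 rows most alike. Any other gene of a list, such as Siglecg, Ciita, Eomes, Spib and Spi1, was named after its values were seen. Not all genes this rule took are reported. Alternatives were the pseudocount, filter, scaling, variance model, rows summed per symbol, a replicate block and each library left out.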

Additional observations from a re-analysis of the deposited data

How the results depend on the processing

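Limma called 0 of the 6 tested genes under every alternative run, with adjusted p from 0.237 to 0.971. Directions held in 11 settings that kept all libraries (pseudocounts of 0.5 and 8, filters, 3 scalings, no trend, voom, summed rows and the replicate block). With 1 library left out, the log2 fold change ran from 0.04 to 0.59 for Cd79a, -0.24 to 1.63 for Cd79b, -1.33 to 1.31 for Ms4a1, -1.08 to 1.30 for H2-Aa, -1.41 to 1.16 for H2-Ab1 and -0.16 to 1.58 for Cd74; the negative values are those without KO3 or, for Ms4a1, H2-Aa and H2-Ab1, also without WT2 (-0.87, -0.26 and -0.62). Over all rows the count of 196 went to 124 with no trend and ranged from 114 to 562 with 1 library left out (114 without KO2, 124 without WT1, 127 without WT3, 562 without KO3); the cause was not tested. Over the other gene lists 1 gene was called, Icosl, and 2 among rows with a mean of at least 50 (Pou2af1 added) and with the replicate block (Il7r added), and 1 to 6 with 1 library left out, 6 without KO3. Deviations of same-numbered libraries correlated at r = -0.31, 0.26 and 0.36. Those of the other pairs of a wild-type and a knockout library ran from -0.44 to 0.37, so the numbers were not taken to pair them. The replicate block called 175 rows. It gave smaller errors for the 6 tested genes, such as 0.67 in place of 1.14 for H2-Aa and 0.44 in place of 0.82 for Cd74. No level is read for genes with 3 reads or fewer, Cd22 and Ebf1 among them.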

Other observations

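Costimulation genes of antigen presenting cells behaved in more than one way. All 8 listed were in the table and 5 were tested, of which 1 rose and 0 fell by limma, against 1.51% of all tested rows called. With so few genes no result is read from that count. The median log2 fold change was 0.79 (0.11 without KO3). The riser was Icosl, the ligand of the costimulatory receptor ICOS, at 280.3, 286 and 256 across WT1 to WT3, and 650.4, 719.9 and 761 across KO1 to KO3. Its log2 fold change was 1.37 (SE 0.12, limma adjusted p 0.00054) and 1.32 without KO3 (limma adjusted p 0.00036), so its rise was nearly as large without the library in which the B cell and class II genes stood out. Cd86, a ligand of CD28, read 453, 778 and 899 in the knockout libraries and 287 to 490 in wild type, with overlapping groups (log2 fold change 0.79, limma adjusted p 0.275). Fscn1, the actin bundling protein of mature dendritic cells, read 154 in KO3 and 3.30 to 25.5 elsewhere. Cd80 read 30.3 in KO3 and at most 5.58 in the other libraries, and was too low to be tested. Cd40 was at 3 reads or fewer in every library.

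The CD4 T cell identity genes did not share the KO3 excess, unlike Cd8a and Cd8b1. KO3 was the highest library in 0 of the 16 CD4 T cell identity genes, against 19.3% of all tested rows. With all libraries limma called 0 of them, against 1.51% of all tested rows. At an unadjusted p under 0.05 limma had 4 of the 16 and 1651 of the 13022 rows. The median log2 fold change was -0.11 (-0.08 without KO3). Cd3e, the CD3 epsilon chain, read 5077, 8097 and 5369 in wild type and 13743, 9911 and 5730 in the knockout, and it rose when KO3 was left out (log2 fold change 0.95, limma adjusted p 0.0275; 0.61 and 0.461 with all libraries). Il7r, the interleukin-7 receptor alpha chain, was lowest in KO3 at 19013 and read 32322 to 42275 in wild type (log2 fold change -0.60, SE 0.17, limma adjusted p 0.175).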
